A study of Mus musculus with 12 samples.

Results

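Desmosomes are the spot-like junctions that hold epithelial cells together, and 10 of their genes were followed here in mouse 4T1 mammary carcinoma cells. The genes were taken by symbol, out of 35521 genes with a transcript in the deposited tables: *Perp*, *Dsp*, *Jup*, *Pkp1*, *Pkp2*, *Pkp3*, *Dsc2*, *Dsg2*, *Ppl* and *Evpl*. The set was chosen by the level of *Perp*, which is lower in cells primed with Gr1+CD11b+ cells than in parental cells. The values of *Perp* are therefore given as a description without a test, and *Perp* is left out of the counts unless it is said to be counted. All 10 genes passed the filter on low counts, as did 12555 genes in all.

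A total of 3 groups of 4 bulk RNA-Seq libraries each were compared. The 4T1 line comes from BALB/c mice. In the first group, parental 4T1 cells had been cocultured for 48 hours with Gr1+ cells from tumors of 4T1 tumor–bearing BALB/c mice (Tu-Gr1+CD11b+–primed 4T1, or Tu-primed), and in the second with Gr1+ cells from the spleens of such mice (Spl-Gr1+CD11b+–primed 4T1, or Spl-primed). A Transwell membrane with 0.4 µm pores separated the cell types, and the labels place the isolation of the Gr1+ cells by magnetic columns at day 21 after injection, whereas the methods of the study give a later day. The third group held parental 4T1 cells without Gr1+ cells, so all groups share the same line and no allele or transgene separates them. The labels number the libraries of a group 1 to 4 but do not say whether these were separate cultures, so the p-values measure the spread between libraries, which may be technical.

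In a desmosome, cadherins of the desmoglein and desmocollin families reach across the gap and bind those of the neighboring cell. On the inner side, the armadillo proteins plakoglobin and the plakophilins gather in a plaque, and desmoplakin ties the plaque to keratin filaments. PERP is a membrane protein of the tetraspan type that is needed for desmosomes in stratified epithelia and is a transcriptional target of p53 and p63. Periplakin and envoplakin are plakins like desmoplakin and form part of the cornified envelope beneath the membrane.

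Library totals lay between 24566183 and 31637755 estimated reads. Values between groups are in CPM, counts scaled to library size with TMM normalization, which aligns the bulk of genes between libraries. Values between genes are in TPM, which also divides by transcript length. The scaling bears on the values that follow, and the libraries differed in composition. The mitochondrial transcript *mt-Atp8* took between 10.2% and 15.0% of all TPM in parental libraries, 5.06% to 7.05% in Spl-primed and 4.52% to 5.76% in Tu-primed libraries, and its part in the shifts between scalings was not tested. Against parental cells, the median gene stood at a log2 fold change of 0.02 in both primed groups after TMM normalization. Without it, on library size only, the median gene stood at 0.21 in Tu-primed and 0.19 in Spl-primed cells, and on the log2(TPM + 1) scale at 0.40 and 0.34. On library size only, 1760 genes were lower and 5965 higher in Tu-primed than in parental cells, against 3515 and 3919 after TMM normalization. For Spl-primed cells, the counts were 1061 and 5374 on library size only and 2828 and 3225 after TMM normalization.

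Epithelial markers stood at very different levels in these cells. Of 8 mammary epithelial markers, *Krt5* was at 0 in every library and *Krt14* held only 7 to 14 counts per library. The summed level of the list was 2648 to 3954 CPM in parental, 2368 to 2554 CPM in Spl-primed and 1879 to 2306 CPM in Tu-primed cells. Most of it came from *Krt8* and *Krt18*, the latter at 1091 CPM in parental cells. Of the 7 tested, 4 were lower and 0 higher in Tu-primed than in parental cells, and 3 were lower and 1 higher in Spl-primed cells. The shares over all genes were 28.0% lower and 31.2% higher in Tu-primed cells, and 22.5% and 25.7% in Spl-primed cells. On library size only the counts were 3 lower and 1 higher and 1 lower and 1 higher. The shares over all genes were then 14.0% lower and 47.5% higher in Tu-primed cells, and 8.45% and 42.8% in Spl-primed cells. *Krt8*, a keratin of simple epithelia, averaged 1491 CPM in parental, 1071 CPM in Spl-primed and 871 CPM in Tu-primed cells. *Epcam*, an epithelial adhesion molecule gene, averaged 70.7, 87.1 and 76.5 CPM in the same order and was higher in Spl-primed than in parental cells (0.30, SE 0.08, adjusted p = 0.00573 by the edgeR quasi-likelihood test). Of 16 granulocyte and myeloid markers, between 7 and 8 were at 0 in every library of a group, *Mpo*, *Ngp*, *Retnlg*, *Mmp8*, *Tyrobp* and *Cd177* among them. The list summed to 171 to 203 CPM in parental, 236 to 245 CPM in Spl-primed and 221 to 245 CPM in Tu-primed cells, and most of that came from *Itgb2*, an integrin chain that parental cells carried at 185 CPM and that was higher in Tu-primed (0.31, SE 0.06, adjusted p = 0.000330) and Spl-primed cells (0.35, SE 0.06, adjusted p = 0.000247) by the edgeR quasi-likelihood test. The other 15 markers summed to 3.88 to 4.79 CPM in parental, 3.41 to 5.45 CPM in Spl-primed and 3.51 to 7.81 CPM in Tu-primed cells. Of the 3 markers tested, 2 were higher and 0 lower in Tu-primed than in parental cells, 1 was higher and 0 lower in Spl-primed cells, and 1 was higher and 0 lower in Tu-primed than in Spl-primed cells. When each library was left out in turn, the first of these counts higher lay between 1 and 2 and the last between 0 and 1. Beside them, the shares of all genes that were higher were 31.2%, 25.7% and 4.66% in the same order of comparisons. In these bulk libraries, fewer cells of a type and less RNA per cell cannot be told apart, and the part of these markers in the results that follow was not tested.

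On the scale that corrects for transcript length, the 10 genes covered a wide range in parental cells. *Perp* was the highest at 63.7 ± 6.87 TPM (SD, n = 4). The plaque genes *Pkp3* at 36.7 ± 1.64 and *Jup* at 32.4 ± 5.31 TPM followed, and the ranges of these neighbors overlapped. *Ppl* at 17.0 ± 0.552 TPM and *Dsp* at 12.8 ± 2.17 TPM stood next, each apart from the gene below it in all 4 libraries.

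The other genes were low. *Pkp2* averaged 5.08 TPM, the cadherins *Dsg2* and *Dsc2* 2.59 and 0.683 TPM, *Evpl* 0.353 TPM and *Pkp1* 0.260 TPM, and only the last pair overlapped. The order was the same in Tu-primed cells, and in Spl-primed cells *Pkp1* stood above *Evpl* in all 4 libraries. In every group, *Pkp3* was the highest of *Pkp1*, *Pkp2* and *Pkp3*, and *Dsg2* stood above *Dsc2*. The low genes rest on few reads, with 20 to 53 counts per library for *Pkp1*, 32 to 74 for *Evpl* and 54 to 116 for *Dsc2*.

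**Figure D1:**
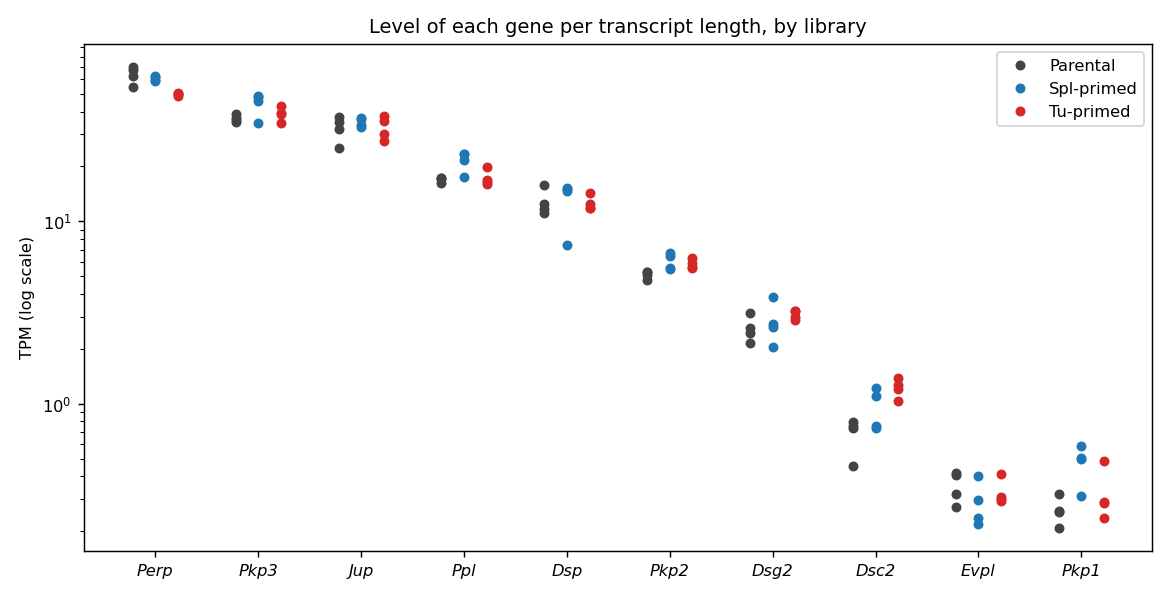
TPM (vertical axis, log scale) of the 10 genes in each of 4 parental, 4 Spl-primed and 4 Tu-primed libraries, 1 point per library. Genes stand in their order in parental cells, from *Perp* at 63.7 TPM to *Pkp1* at 0.260 TPM.

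Promoter sequences were available from RefSeq for 2 of the 10 genes, *Dsp* and *Jup*, and are shown because both encode core plaque proteins and both were lower in Tu-primed cells. The 250 bases before the start site of *Dsp* lie at chr13:38151044-38151293 on the plus strand of GRCm38.p6 and are 72.4% G or C. Those of *Jup* lie at chr11:100397791-100398040 on the minus strand and are 62.0% G or C. Both are printed 5′ to 3′ along the gene's strand, and capitals mark the GC box GGGCGG, searched on both strands.
Dsp: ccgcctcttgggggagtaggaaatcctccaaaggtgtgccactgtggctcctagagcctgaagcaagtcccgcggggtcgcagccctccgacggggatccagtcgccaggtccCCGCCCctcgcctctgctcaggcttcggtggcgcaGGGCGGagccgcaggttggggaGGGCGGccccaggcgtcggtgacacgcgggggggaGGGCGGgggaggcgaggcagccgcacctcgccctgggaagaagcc
Jup: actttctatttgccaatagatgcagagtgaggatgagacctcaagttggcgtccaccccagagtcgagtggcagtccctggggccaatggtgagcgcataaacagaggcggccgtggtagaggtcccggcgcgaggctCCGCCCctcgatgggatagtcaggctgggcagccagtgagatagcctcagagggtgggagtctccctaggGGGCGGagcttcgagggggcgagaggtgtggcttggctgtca
The GC box occurred 4 times in the *Dsp* window and 2 times in the *Jup* window, and 32.9% of 27025 mouse promoter windows of the same length held it. The CCAAT box, spelled CCAAT, occurred 2 times in the *Jup* window and 0 times in that of *Dsp*, and 34.5% of windows held it. Neither window held the TATA box TATAAA, the AP-1 motif TGANTCA, the E-box CANNTG or the STAT-type motif TTCNNNGAA on either strand, which were found in 13.0%, 6.87%, 66.0% and 7.18% of windows. These matches describe letters in the windows and not bound sites.

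*Perp* lies at chromosome 10, 18845020 to 18857073, on the plus strand of GRCm38, and has a single annotated transcript of 1952 nt. Its level was 106, 109, 112 and 107 CPM in the parental libraries 1 to 4, 81.8, 75.3, 86.1 and 72.8 CPM in the Spl-primed libraries, and 63.4, 63.3, 59.1 and 62.4 CPM in the Tu-primed libraries. The 3 groups did not overlap, with parental cells highest, Spl-primed cells between and Tu-primed cells lowest. The mean was 109 ± 2.56 CPM in parental, 79.0 ± 6.09 CPM in Spl-primed and 62.1 ± 2.03 CPM in Tu-primed cells (SD, n = 4 each).

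The log2 fold change of *Perp* was -0.81 (SE 0.06) in Tu-primed and -0.46 (SE 0.06) in Spl-primed cells against parental cells, given without a test because *Perp* was chosen on them. Between the primed groups, *Perp* stood at a log2 fold change of -0.35 (SE 0.06) in Tu-primed against Spl-primed cells, also without a test, since the values of the primed libraries chose it. Among all genes tested, the libraries of the groups did not overlap and Tu-primed cells were lower for 8.51% of genes in this comparison. Scaled by library size only, *Perp* stood at -0.62 in Tu-primed and -0.29 in Spl-primed cells, and on log2(TPM + 1) at -0.34 and -0.06. Relative to the median gene, these values were -0.83 and -0.48 on library size only and -0.74 and -0.40 on log2(TPM + 1), beside -0.83 and -0.48 after TMM normalization.

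**Figure D2:**
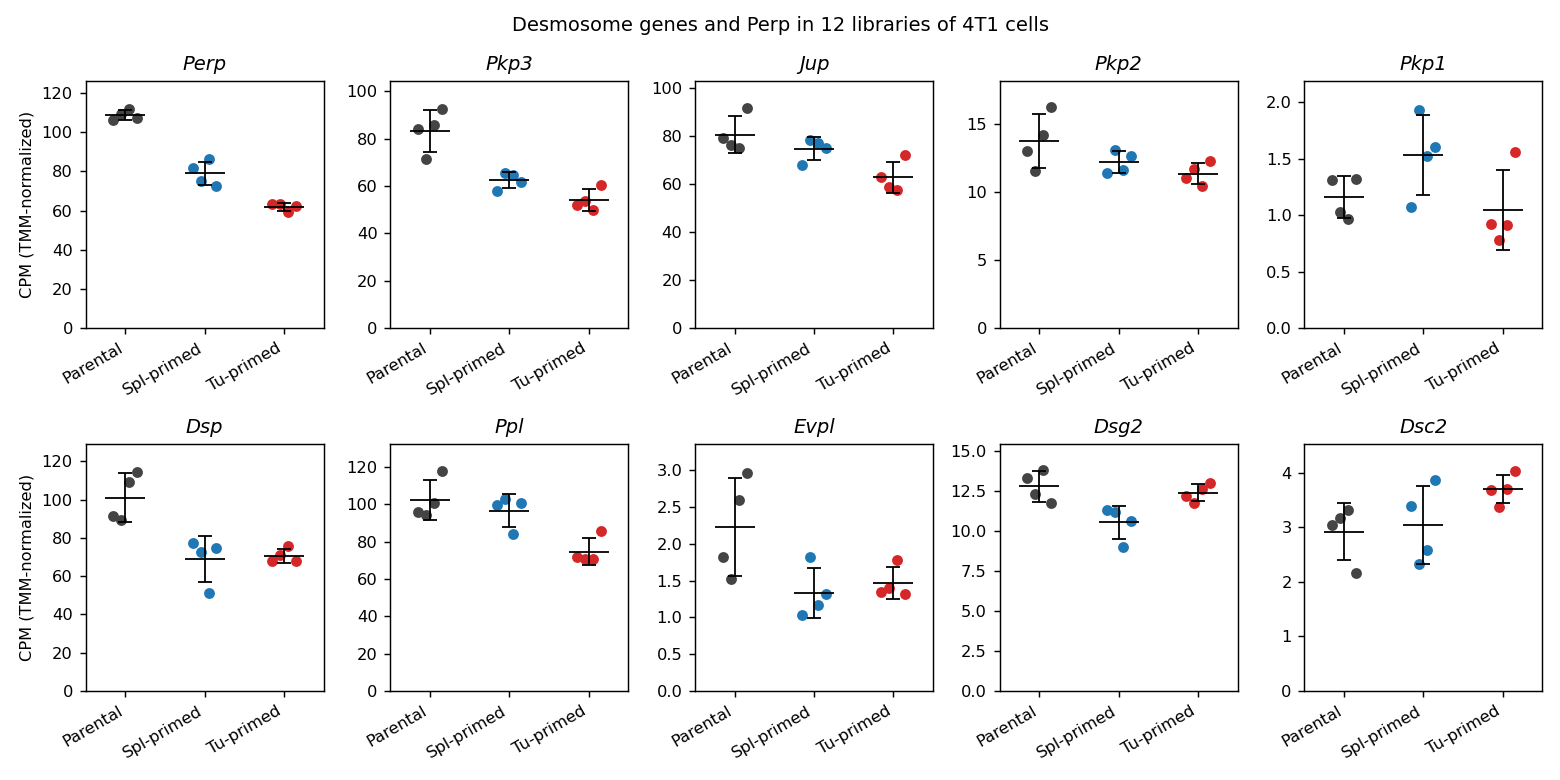
CPM after TMM normalization (vertical axes, from 0) of each gene in parental, Spl-primed and Tu-primed 4T1 cells, with 1 point per library and bars for the mean ± SD of 4 libraries. The 3 groups are apart for *Perp*, while *Dsp* is lower in both primed groups and *Ppl* in Tu-primed cells.

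Of the 9 other genes, 6 were lower and 0 higher in Tu-primed than in parental cells at an adjusted p under 0.05, and 3 did not pass. Over all genes tested, 28.0% were lower and 31.2% higher in this comparison. The 6 genes were *Pkp3*, *Ppl*, *Dsp*, *Jup*, *Pkp2* and *Evpl*, so every plaque and plakin gene but *Pkp1* was lower, and neither cadherin passed. The median log2 fold change of the 9 genes was -0.36, beside 0.02 for all genes. On library size only, 3 of the 9 genes were lower and 1 higher, and on log2(TPM + 1) 0 were lower and 1 higher, with *Dsc2* the gene that was higher on both scales. Over all genes, 14.0% were lower and 47.5% higher on library size only, and 2.52% were lower and 65.4% higher on log2(TPM + 1). The libraries of the groups did not overlap for 4 of the 9 genes that were lower in Tu-primed cells, namely *Pkp3*, *Dsp*, *Jup* and *Ppl*, where 26.9% of all genes did so.

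In Spl-primed cells, 4 of the 9 genes were lower and 0 higher than in parental cells, and 5 did not pass, beside 22.5% lower and 25.7% higher over all genes. They were *Pkp3*, *Dsp*, *Dsg2* and *Evpl*. The median log2 fold change of the 9 genes was -0.17, beside 0.02 for all genes. *Pkp3*, *Dsp* and *Dsg2* did not overlap between the groups, 3 of 9 genes beside 18.3% of all genes. With library size only, 2 genes were lower, and on log2(TPM + 1) 0 were lower while *Pkp1* and *Ppl* were higher. Relative to the median gene on log2(TPM + 1), *Pkp1* stood at -0.11 and *Ppl* at -0.018. Over all genes, 8.45% were lower and 42.8% higher on library size only, and 0.932% were lower and 58.5% higher on log2(TPM + 1). The comparisons of both primed groups share the parental libraries, so a gene called in both is not called by independent data.

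Between the primed groups, 1 of the 9 other genes, *Ppl*, was lower in Tu-primed than in Spl-primed cells and 0 were higher, beside 2.97% lower and 4.66% higher over all genes. With *Perp* counted, which its choice does not allow as support, 2 of 10 were lower. The median log2 fold change of the 9 genes was -0.10, beside -0.01 for all genes. For all 8 others, a difference between tumor and spleen Gr1+ cells as the source of priming did not pass the test, which does not show that they were alike. At an unadjusted p under 0.05, 4 of the 9 genes were on the lower side (*Ppl*, *Jup*, *Pkp3* and *Pkp1*) and 1 on the higher side (*Dsg2*), where 12.4% of all genes were lower and 10.2% higher.

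**Figure D3:**
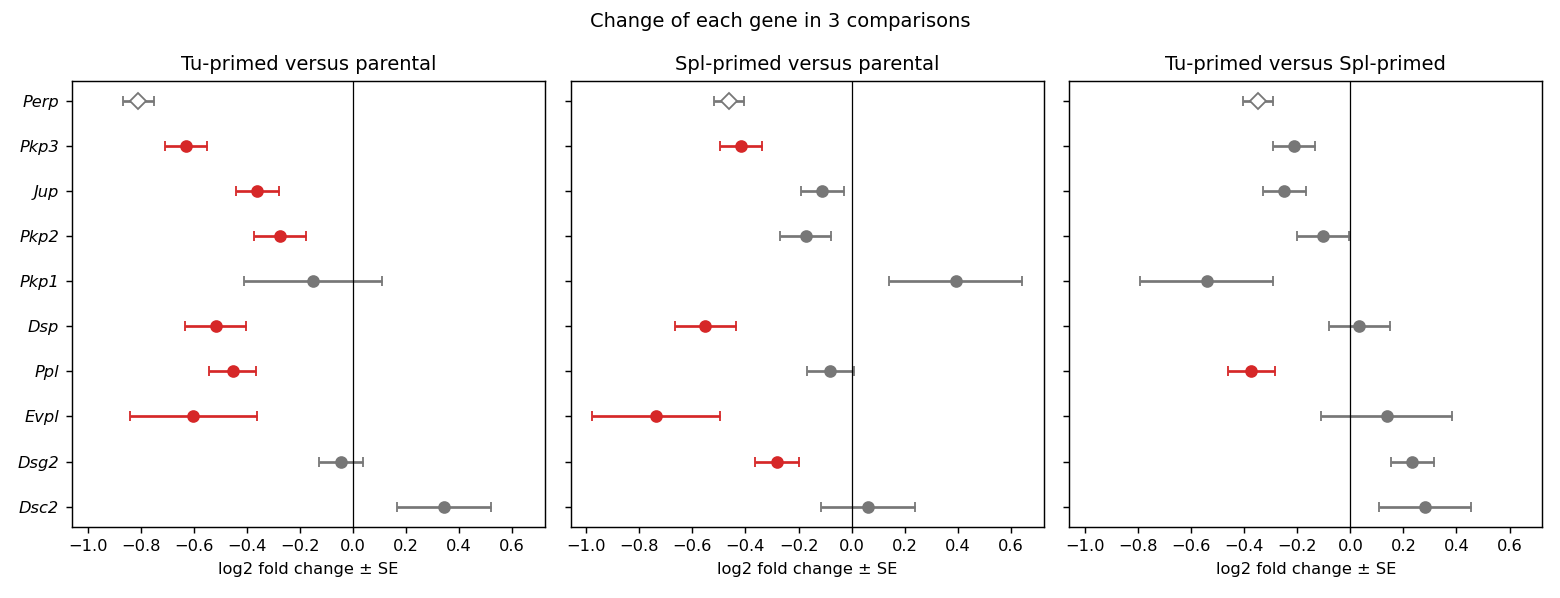
Log2 fold change ± SE of the 10 genes in 3 comparisons, from the fit of all 12 libraries. Red points passed an adjusted p under 0.05, gray points did not, and open diamonds are *Perp* values given without a test. In Tu-primed against parental cells the 6 genes that passed lie between -0.63 and -0.27.

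Among the armadillo proteins of the plaque, *Pkp3*, which encodes plakophilin-3 and lies at chromosome 7, 141078218 to 141090510 (plus strand), had the smallest p of the 9 genes in both comparisons with parental cells. It was at 83.9, 71.3, 85.6 and 92.7 CPM in parental libraries, 58.0, 65.5, 64.7 and 61.6 CPM in Spl-primed libraries, and 51.8, 53.6, 49.8 and 60.5 CPM in Tu-primed libraries. Every primed library lay below every parental library, while the primed groups overlapped. The log2 fold change was -0.63 (SE 0.08, adjusted p = 1.90e-05) in Tu-primed and -0.42 (SE 0.08, adjusted p = 0.000784) in Spl-primed cells, and the difference of -0.21 between them did not pass (adjusted p = 0.129, the edgeR quasi-likelihood test after Benjamini-Hochberg adjustment).

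The share of *Pkp3* reads assigned to its leading transcript was compared as well, and no difference passed after adjustment. With 4 libraries against 4, a single test cannot pass the adjustment over 12 tests, so not passing does not show that the shares were alike. The leading *Pkp3* transcript is protein coding and held 95.1%, 90.2%, 99.0% and 99.0% of the reads in parental libraries, 91.9%, 86.2%, 78.4% and 80.3% in Spl-primed libraries, and 89.5%, 85.9%, 89.2% and 85.6% in Tu-primed libraries. The means were 95.8% ± 4.16, 84.2% ± 6.13 and 87.5% ± 2.08 (SD, n = 4 each). All Tu-primed libraries lay below all parental ones (exact permutation test, two-sided, p = 0.0286, the smallest that 4 against 4 allows, adjusted p = 0.343 over 12 tests), and Spl-primed libraries overlapped with them (exact permutation p = 0.0571, adjusted p = 0.343). The second transcript is annotated as a retained intron and had 111, 143, 0 and 0 reads in the parental libraries 1 to 4 and 114 to 312 reads in the primed libraries. Counting the reads of protein-coding transcripts alone, *Pkp3* stood at -0.72 in Tu-primed and -0.55 in Spl-primed cells. With transcript length offsets in DESeq2 it stood at -0.41 (adjusted p = 0.00115) and -0.17 (adjusted p = 0.252), so the call in Spl-primed cells was lost, and on log2(TPM + 1) the direction turned to 0.081 and 0.25. The median gene stood at 0.40 and 0.34 on log2(TPM + 1), and relative to it *Pkp3* stood at -0.32 and -0.086.

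**Figure D4:**
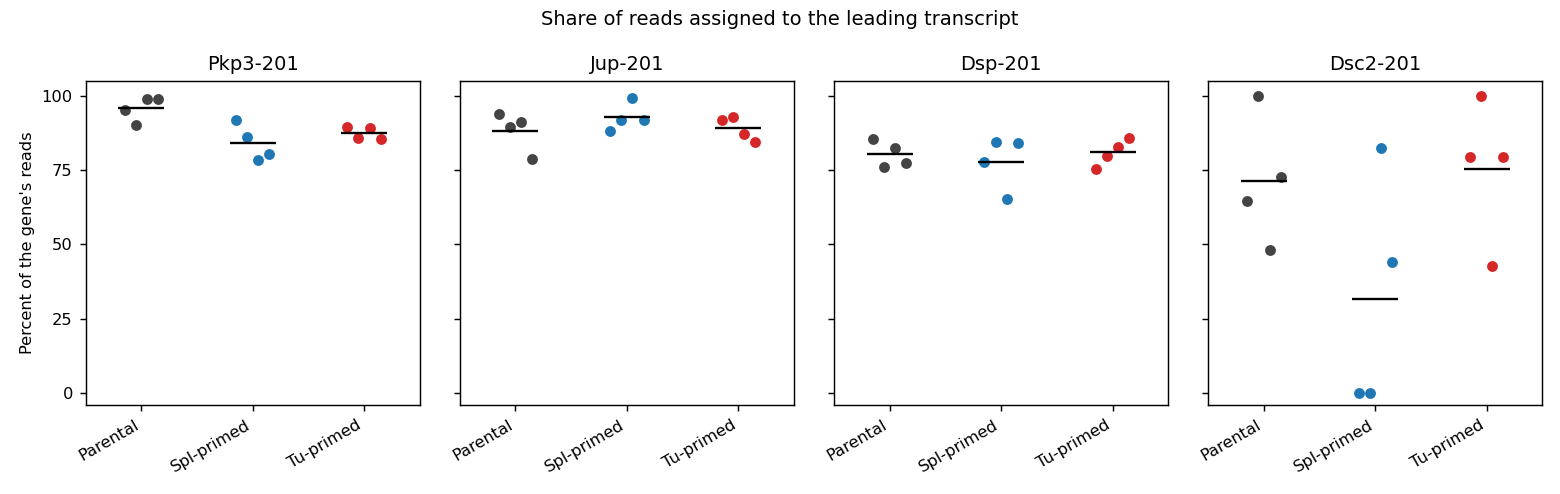
Percent of a gene's estimated reads assigned to its leading transcript (vertical axes) in parental, Spl-primed and Tu-primed cells, with 1 point per library and a line at the mean of 4. The leading *Pkp3* transcript averages 95.8% in parental, 84.2% in Spl-primed and 87.5% in Tu-primed cells, and the points of *Dsc2* scatter from 0 to 100%.

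*Jup* encodes plakoglobin, the armadillo protein that binds the cadherin tails, and lies at chromosome 11, 100368958 to 100397763 (minus strand). Parental libraries held 79.4, 76.5, 75.3 and 92.0 CPM, Spl-primed libraries 68.1, 78.6, 77.5 and 75.2 CPM, and Tu-primed libraries 63.2, 59.0, 57.5 and 72.1 CPM. Tu-primed libraries all lay below parental ones, and Spl-primed libraries overlapped with both. *Jup* was lower in Tu-primed cells by 22.1% (log2 fold change -0.36, SE 0.08, adjusted p = 0.00176), whereas in Spl-primed cells it stood at -0.11 (SE 0.08, adjusted p = 0.278) by the edgeR quasi-likelihood test after Benjamini-Hochberg adjustment. Between the primed groups the value was -0.25 (adjusted p = 0.0791). Scaled by library size only, *Jup* stood at -0.17 in Tu-primed cells and did not pass (adjusted p = 0.0788). With transcript length offsets in DESeq2, *Jup* was lower in Spl-primed cells too (-0.33, adjusted p = 0.0309).

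The other plakophilins were less abundant. *Pkp2*, which is found in simple epithelia and heart, held 11.6 to 16.2 CPM in parental, 11.4 to 13.1 CPM in Spl-primed and 10.5 to 12.3 CPM in Tu-primed libraries, and the groups overlapped. It was lower in Tu-primed than in parental cells at -0.27 (SE 0.10, adjusted p = 0.0249 by the edgeR quasi-likelihood test), a call that ended when Tu-primed library 1 or 3 or parental library 3 or 4 was left out (adjusted p = 0.0570 to 0.0869) and on library size only (-0.083, adjusted p = 0.434). *Pkp1*, the plakophilin of stratified epithelia, held 0.964 to 1.32 CPM in parental, 1.07 to 1.93 CPM in Spl-primed and 0.777 to 1.56 CPM in Tu-primed libraries. Its log2 fold changes of -0.15 (SE 0.26) in Tu-primed and 0.39 (SE 0.25) in Spl-primed cells did not pass.

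*Dsp* encodes desmoplakin, the plakin that anchors keratin filaments, and lies at chromosome 13, 38151294 to 38198577 (plus strand). It was at 91.4, 89.1, 109 and 114 CPM in parental libraries, 77.3, 72.5, 51.3 and 74.7 CPM in Spl-primed libraries, and 68.0, 70.9, 75.6 and 68.0 CPM in Tu-primed libraries. Both primed groups lay wholly below parental cells and overlapped with each other, and Spl-primed library 3 was the lowest of all 12. The change was of like size in both groups, at -0.52 (SE 0.11, adjusted p = 0.00154) in Tu-primed and -0.55 (SE 0.11, adjusted p = 0.00148) in Spl-primed cells by the edgeR quasi-likelihood test after Benjamini-Hochberg adjustment. The difference between the primed groups was 0.03 (SE 0.12, adjusted p = 0.898). The call in Spl-primed cells was lost with transcript length offsets in DESeq2 (-0.43, adjusted p = 0.0957), and limma on the deposited normalized values lost both calls (adjusted p = 0.0671 and 0.119). In that limma fit the log2 fold change in Tu-primed cells was -0.50, so the call was lost at about the same size of change.

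The reads of *Dsp* fell on a pair of coding transcripts that differ in exon 23 of 24. Dsp-201 uses the whole exon, chromosome 13, 38191361 to 38193655, and Dsp-202 an early splice donor that leaves out 1797 bases of it, 38191859 to 38193655. The bases around each junction with exon 24 are shown because they tell the long from the short form of the desmoplakin rod, with 30 bases of exon 23 in lower case and the first 30 of exon 24 in capitals.
Dsp-201: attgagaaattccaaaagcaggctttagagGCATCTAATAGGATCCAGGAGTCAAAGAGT
Dsp-202: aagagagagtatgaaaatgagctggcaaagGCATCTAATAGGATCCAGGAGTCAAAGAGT
Dsp-201 held 80.3% ± 4.33 of reads in parental, 77.8% ± 8.99 in Spl-primed and 81.0% ± 4.41 in Tu-primed cells (SD, n = 4 each). The shares overlapped between all groups, and the exact permutation tests gave p = 0.771 for Spl-primed and 0.857 for Tu-primed against parental cells. Spl-primed library 3, the lowest for *Dsp*, also had the lowest share at 65.2%.

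*Ppl* encodes periplakin and lies at chromosome 16, 5086291 to 5132421 (minus strand). Parental libraries held 95.8, 94.3, 101 and 118 CPM, Spl-primed libraries 99.4, 103, 83.8 and 101 CPM, and Tu-primed libraries 71.5, 70.6, 70.7 and 85.7 CPM. Tu-primed libraries lay below all parental ones, and only library 4 reached above the lowest Spl-primed library. *Ppl* was lower in Tu-primed cells by 27.0% against parental (log2 fold change -0.45, SE 0.09, adjusted p = 0.000624) and by 22.8% against Spl-primed cells (-0.37, SE 0.09, adjusted p = 0.0190), and stood at -0.08 (adjusted p = 0.473) in Spl-primed against parental cells, by the edgeR quasi-likelihood test after Benjamini-Hochberg adjustment. The difference between the primed groups no longer passed when Tu-primed library 1, 2 or 3 or Spl-primed library 1 or 2 was left out (adjusted p = 0.0539 to 0.0736).

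*Evpl*, the envoplakin partner of periplakin, held 1.52 to 2.96 CPM in parental libraries, 1.04 to 1.82 CPM in Spl-primed libraries and 1.32 to 1.78 CPM in Tu-primed libraries. All groups overlapped. It was lower at -0.60 (SE 0.24, adjusted p = 0.0432) in Tu-primed and -0.74 (SE 0.24, adjusted p = 0.0210) in Spl-primed cells by the edgeR quasi-likelihood test. The call in Tu-primed cells ended under many alternatives, such as protein-coding transcripts only (adjusted p = 0.0678), and that in Spl-primed cells ended when Spl-primed library 1 or parental library 3 or 4 was left out.

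The desmosomal cadherins lie on chromosome 18. *Dsg2*, the desmoglein of simple epithelia, was at 13.3, 12.3, 13.8 and 11.7 CPM in parental libraries, 11.3, 11.2, 9.01 and 10.6 CPM in Spl-primed libraries, and 12.2, 11.7, 12.6 and 13.0 CPM in Tu-primed libraries. Spl-primed libraries lay below all others. *Dsg2* was lower in Spl-primed than in parental cells at -0.28 (SE 0.08, adjusted p = 0.0127) and stood at -0.05 (SE 0.08, adjusted p = 0.658) in Tu-primed cells, and the difference between the primed groups did not pass (0.23, SE 0.08, adjusted p = 0.104) by the edgeR quasi-likelihood test after Benjamini-Hochberg adjustment. Scaled by library size only, *Dsg2* stood at -0.11 in Spl-primed cells and did not pass, and on log2(TPM + 1) at 0.076. Relative to the median gene, these values were -0.30 and -0.26, beside -0.30 after TMM normalization. Transcript length offsets in DESeq2 ended the call as well (adjusted p = 0.160).

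*Dsc2*, the desmocollin of the same cells, was the gene with the highest log2 fold change of the 10 in Tu-primed against parental cells. It held 3.03, 3.17, 3.31 and 2.16 CPM in parental, 3.39, 2.32, 2.58 and 3.86 CPM in Spl-primed and 3.69, 3.38, 3.70 and 4.03 CPM in Tu-primed libraries. All Tu-primed libraries lay above the parental ones, but the difference of 0.34 (SE 0.18) did not pass (adjusted p = 0.108 by the edgeR quasi-likelihood test), and neither did 0.06 (SE 0.18, adjusted p = 0.796) in Spl-primed cells. The difference was 0.22 (adjusted p = 0.286) without parental library 4, the lowest of its group, and 0.16 (adjusted p = 0.671) on protein-coding transcripts only, whereas it passed on library size only, at 0.53 (adjusted p = 0.0215), and on log2(TPM + 1), at 0.40 (adjusted p = 0.00373). The median gene stood at 0.21 and 0.40 on these scales. Relative to it, *Dsc2* stood at 0.32 on library size only and at -0.00014 on log2(TPM + 1), beside 0.32 after TMM normalization.

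Ratios of genes within a library do not depend on how libraries are scaled to each other, and 15 such comparisons were made on TPM. The log2 ratio of *Dsc2* to *Dsg2* was higher by 0.60 in Tu-primed than in parental cells, at -1.34 ± 0.0987 against -1.94 ± 0.287 (SD, n = 4 each), without overlap (exact permutation test, two-sided, p = 0.0286, adjusted p = 0.214). That of *Pkp1* to *Pkp3* was higher by 0.59 in Spl-primed than in parental cells, also without overlap (exact permutation p = 0.0286, adjusted p = 0.214). None of the 15 ratios passed after adjustment, and 4 libraries against 4 cannot give a p below 0.0286. A single ratio at that p cannot pass the adjustment over 15 tests, so not passing does not show that the ratios were alike.

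Over the 12 libraries, the log2 CPM of *Pkp3* followed that of *Perp* most closely among the members, with a Pearson r of 0.907. *Jup* had an r of 0.752, *Ppl* of 0.720, *Dsp* of 0.654, *Pkp2* of 0.625 and *Evpl* of 0.515, while *Dsg2* at 0.127 and *Pkp1* at 0.0930 did not follow it and *Dsc2* had an r of -0.522. These are descriptions over points that share 3 groups and a common scaling. Among 12554 genes ranked by r, *Pkp3* stood at 827, *Jup* at 2551, *Ppl* at 2778, *Dsp* at 3208, *Pkp2* at 3376 and *Evpl* at 3924, so many genes outside the set followed *Perp* more closely than these members did. The 5 genes with the highest r were *Pwp2* (0.992), *Slc25a5* (0.991), *Nqo1* (0.989), *Psme3* (0.988) and *Nop2* (0.985). Their likeness to *Perp* is what chose them, and *Nqo1*, a quinone reductase, stood at 46.8 CPM in parental, 33.6 CPM in Spl-primed and 23.6 CPM in Tu-primed cells.

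Most desmosome genes outside the 10 were hardly present. Of 9 such genes, *Dsc1*, *Dsc3*, *Dsg1a*, *Dsg1b*, *Dsg1c*, *Dsg3*, *Dsg4* and *Cdsn*, genes mainly of stratified epithelia, did not pass the filter, and none of them had more than 11 counts in a library. *Pkp4*, an armadillo protein of both desmosomes and adherens junctions, was tested. It averaged 106 CPM in parental, 94.9 CPM in Spl-primed and 95.1 CPM in Tu-primed cells, with log2 fold changes of -0.17 (SE 0.06, adjusted p = 0.0317) and -0.16 (SE 0.06, adjusted p = 0.0294) by the edgeR quasi-likelihood test. Both calls ended on library size only, on log2(TPM + 1), on protein-coding transcripts only and when parental library 1, 2 or 3 was left out. They also ended without Tu-primed library 1, 2 or 4 for Tu-primed cells and without Spl-primed library 2 or 4 for Spl-primed cells.

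Of 13 further plakins and cornified envelope genes, 5 were tested, and 2 of these were lower and 0 higher in each primed group against parental cells, on library size only as well. All-gene shares were 28.0% lower and 31.2% higher in Tu-primed and 22.5% and 25.7% in Spl-primed cells. On library size only they were 14.0% and 47.5%, and 8.45% and 42.8%. On log2(TPM + 1) the counts were 1 lower and 1 higher in Tu-primed and 2 lower and 1 higher in Spl-primed cells. There, 2.52% of all genes were lower and 65.4% higher in Tu-primed cells, and 0.932% and 58.5% in Spl-primed cells. The median log2 fold change of the 5 was -0.41 in Tu-primed and -0.31 in Spl-primed cells. *Plec*, which encodes plectin, a plakin that crosslinks keratin filaments, averaged 456 CPM in parental, 268 CPM in Spl-primed and 257 CPM in Tu-primed cells (log2 fold change -0.83, SE 0.13, adjusted p = 0.000102 in Tu-primed and -0.77, SE 0.13, adjusted p = 0.000326 in Spl-primed cells by the edgeR quasi-likelihood test). *Eppk1*, which encodes epiplakin, was lower at -0.88 (SE 0.19, adjusted p = 0.00113) in Tu-primed and -1.18 (SE 0.19, adjusted p = 0.000246) in Spl-primed cells by the same test.

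Genes of the other junctions of epithelial cells were counted beside all genes, of which 28.0% were lower and 31.2% higher in Tu-primed and 22.5% lower and 25.7% higher in Spl-primed cells. On library size only, these shares were 14.0% and 47.5%, and 8.45% and 42.8%. Between the primed groups, 2.97% of all genes were lower and 4.66% higher. Of 10 adherens junction genes tested, 5 were lower and 1 higher in Tu-primed cells and 3 were lower and 0 higher in Spl-primed cells, with a median of -0.16 in both, whereas on library size only 0 were lower and 2 higher in each. *Pkp4*, already counted among the other desmosome genes, is among those lower in both groups, and *Cdh1* is also on the list of mammary epithelial markers. Leaving out each library in turn moved the counts lower to between 3 and 7 in Tu-primed cells (3 without Tu-primed library 1 or 2 or parental library 1 or 3) and to between 1 and 5 in Spl-primed cells (1 without Spl-primed library 4 or parental library 1 or 3, and 5 without Spl-primed library 1 or parental library 4). *Cdh1*, which encodes E-cadherin, stood at -0.31 (SE 0.07, adjusted p = 0.00114) in Tu-primed cells, and *Nectin2*, a nectin of adherens junctions, at 0.38 (SE 0.06, adjusted p = 0.000136) by the edgeR quasi-likelihood test. *Ctnnd1*, which encodes p120 catenin, was lower in Tu-primed (-0.19, SE 0.07, adjusted p = 0.0294) and Spl-primed cells (-0.22, SE 0.07, adjusted p = 0.0175), and the first of these calls ended without Tu-primed library 1 or 2 or parental library 1, 3 or 4. Between the primed groups, *Nectin2* was higher in Tu-primed cells (0.35, SE 0.06, adjusted p = 0.00308), the 1 gene of this list to pass.

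Of 14 tight junction genes tested, 4 were lower and 4 higher in Tu-primed cells and 2 were lower and 2 higher in Spl-primed cells, with medians of -0.12 and 0.12, and on library size only the counts were 2 and 5 and 1 and 5. *Cldn3*, a claudin, was lower at -1.06 (SE 0.16, adjusted p = 6.22e-05) in Tu-primed and -0.65 (SE 0.15, adjusted p = 0.00303) in Spl-primed cells, by the edgeR quasi-likelihood test. The adhesion molecule gene *F11r* was higher at 0.25 (SE 0.05, adjusted p = 0.000412) in Tu-primed and 0.13 (SE 0.05, adjusted p = 0.0329) in Spl-primed cells, and *Cldn4* at 0.41 (SE 0.09, adjusted p = 0.00159) and 0.39 (SE 0.09, adjusted p = 0.00322). The call of *F11r* in Spl-primed cells ended when any parental library or Spl-primed library 1, 2 or 4 was left out. Between the primed groups, 2 genes were lower in Tu-primed cells and 0 higher, with *Marveld2*, which encodes tricellulin, at -0.36 (SE 0.10, adjusted p = 0.0402). That count was 0 on library size only and lay between 0 and 2 when each library was left out, with 0 without Tu-primed library 1, 2 or 3, Spl-primed library 1, 2 or 3 or parental library 1. The call of *Marveld2* held in 4 of these 12 fits.

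Of 4 gap junction genes tested, 2 were lower and 2 higher in Tu-primed cells and 0 were lower and 2 higher in Spl-primed cells, with medians of 0.062 and 0.14, and on library size only the counts were 1 and 2 and 0 and 2. *Gja1*, which encodes connexin 43, averaged 291 CPM in parental, 349 CPM in Spl-primed and 458 CPM in Tu-primed cells, and was higher in Tu-primed cells against parental (0.66, SE 0.10, adjusted p = 8.64e-05) and Spl-primed cells (0.39, SE 0.10, adjusted p = 0.0272) by the edgeR quasi-likelihood test. It was higher in Spl-primed than in parental cells too (0.26, SE 0.10, adjusted p = 0.0432), but this call held in only 3 of the 12 fits that left out a library, namely without Spl-primed library 3 or parental library 1 or 2. The call between the primed groups held in 7 of 12 and ended without Tu-primed library 1, 2 or 3 or Spl-primed library 1 or 2, and that against parental cells in Tu-primed cells held in all 12. *Gjc1*, another connexin gene, was higher at 0.34 (SE 0.07, adjusted p = 0.000576) in Tu-primed and 0.28 (SE 0.07, adjusted p = 0.00333) in Spl-primed cells.

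Relatives of *Perp* with the same membrane topology were also counted. Of 4 tested, 2 were lower and 2 higher in Tu-primed cells and 1 was lower and 1 higher in Spl-primed cells, with medians of 0.023 and -0.041, and on library size only the counts were 1 and 2 and 0 and 1. All-gene shares were 28.0% lower and 31.2% higher in Tu-primed and 22.5% and 25.7% in Spl-primed cells. On library size only they were 14.0% and 47.5%, and 8.45% and 42.8%. *Emp3*, an epithelial membrane protein gene, stood at -0.63 (SE 0.09, adjusted p = 6.69e-05) in Tu-primed and -0.33 (SE 0.09, adjusted p = 0.00937) in Spl-primed cells by the edgeR quasi-likelihood test. *Pmp22*, the peripheral myelin protein gene, was higher in Tu-primed than in both parental (0.35, SE 0.07, adjusted p = 0.000977) and Spl-primed cells (0.34, SE 0.07, adjusted p = 0.00914). *Emp1* was higher at 0.22 in Tu-primed (SE 0.07, adjusted p = 0.0152) and in Spl-primed cells (SE 0.07, adjusted p = 0.0169), calls that both ended without parental library 3 and, in Spl-primed cells, without Spl-primed library 1.

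*Perp* is a p53 target, and calls among the other p53 targets on the list went both ways. Whether the p53 protein is present or active in these cells was not tested. Of 24 tested, 4 were lower and 11 higher in Tu-primed than in parental cells (2 and 12 on library size only), and 3 were lower and 9 higher in Spl-primed cells (2 and 15), while 9 and 12 did not pass. The median log2 fold change of the list was 0.070 and 0.13. Over all genes, 28.0% were lower and 31.2% higher in Tu-primed cells, and 22.5% and 25.7% in Spl-primed cells. With each library left out in turn, 4 to 5 targets were lower and 8 to 11 higher in Tu-primed cells. In Spl-primed cells, 2 to 5 were then lower and 7 to 10 higher. *Aen*, a nuclease gene, went with *Perp*, at -0.90 (SE 0.08, adjusted p = 7.60e-07) in Tu-primed and -0.49 (SE 0.08, adjusted p = 0.000179) in Spl-primed cells and -0.41 (SE 0.08, adjusted p = 0.00397) between them, by the edgeR quasi-likelihood test after Benjamini-Hochberg adjustment. *Ddb2*, a DNA repair gene, averaged 5.46 CPM in parental, 16.3 CPM in Spl-primed and 15.9 CPM in Tu-primed cells. *Plk2* was higher in Tu-primed than in Spl-primed cells at 0.31 (SE 0.07, adjusted p = 0.0149), which ended without Tu-primed library 1 or 3 or Spl-primed library 2.

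Of 12 epithelial transcription factors and splicing regulators tested, 3 were lower and 5 higher in Tu-primed cells and 3 were lower and 1 higher in Spl-primed cells, with medians of 0.10 and 0.13, and on library size only the counts were 1 and 7 and 1 and 6. All-gene shares were 28.0% lower and 31.2% higher in Tu-primed and 22.5% and 25.7% in Spl-primed cells. On library size only they were 14.0% and 47.5%, and 8.45% and 42.8%. *Elf3*, an ETS factor of epithelia, was lower at -0.64 (SE 0.09, adjusted p = 5.11e-05) in Tu-primed and -0.42 (SE 0.09, adjusted p = 0.00177) in Spl-primed cells by the edgeR quasi-likelihood test. Its relative *Ehf* was higher in Tu-primed cells, at 61.2 CPM beside 27.7 CPM in parental and 24.3 CPM in Spl-primed cells. The gene *Trp53* was higher in both, at 1.08 (SE 0.15, adjusted p = 2.94e-05) in Tu-primed and 1.23 (SE 0.15, adjusted p = 2.38e-05) in Spl-primed cells.

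The nearest tested genes on either side of the 10 genes were counted as well. Of 20 such neighbor positions, of which *Dsc2* and *Dsg2* fill each other's, 3 were lower and 4 higher in Tu-primed than in parental cells, 5 were lower and 7 higher in Spl-primed cells, and 2 were lower and 1 higher between the primed groups, and most positions did not pass in the first and last of these. The shares over all genes were 28.0% lower and 31.2% higher, 22.5% and 25.7%, and 2.97% and 4.66% in the same order. Next to *Perp*, *Tnfaip3*, an inhibitor of NF-κB signaling 143836 bases away, was higher in both groups at 0.90 and 0.84. Next to *Dsp*, *Snrnp48*, a spliceosome gene 6360 bases away, was higher at 1.63 and 1.55, against -0.52 and -0.55 for *Dsp*. *Tmem9* beside *Pkp1* and *Spidr* beside *Pkp2* were higher in both as well, and *Gm10039* beside *Jup*, *Sigirr* beside *Pkp3* and *Srp68* beside *Evpl* were lower in both.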

How the data were processed

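Each library has a table, deposited by the authors, of unnormalized estimated counts and of TPM for every Ensembl transcript. A further deposited table holds a normalized signal per gene. The submitters' processing notes name FastQC, Trimmomatic 0.39 and Salmon 1.4.0. The annotation release is not given in the sources used here. Estimated counts were summed per gene by GENCODE M21 (GRCm38), which matched 116021 of 117081 transcripts (0.326% to 0.419% of reads unmatched), and rounded. In R 4.3.3 with edgeR 4.0.16, filterByExpr kept 12555 genes, and the quasi-likelihood test used TMM factors and a single fit of 12 libraries, with Benjamini-Hochberg adjustment over all genes tested and a threshold of 0.05. Log2 CPM used a prior count of 2. Ratios and transcript shares had exact two-sided permutation tests. Alternatives were other size factors, filters and thresholds, DESeq2 1.42.0 with and without transcript length offsets, limma 3.58.1, a replicate block and leaving out each library. The fits were tested on simulated data. Named are all members, the most significant gene per list, direction and comparison, neighbors called in both comparisons with parental cells, and the 5 genes most like *Perp*. Some genes that this rule names are not reported here. *Mpo*, *Ngp*, *Retnlg*, *Mmp8*, *Tyrobp*, *Cd177*, *Krt5*, *Krt14*, *Krt18* and the untested desmosome genes were named after their values were seen. The members and lists were chosen with earlier results of these data known.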

Additional observations from a re-analysis of the deposited data

Results flagged for a closer look

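In the 30 groups of 4 libraries formed by the 10 genes and 3 conditions, the most distant library was tested against the spread of its group, and 2 groups held such a library. Both concern *Ppl*. Tu-primed library 4 stood at 85.7 CPM, above the other three at 70.6 to 71.5 CPM, and Spl-primed library 3 at 83.8 CPM, below the others at 99.4 to 103 CPM. Chance gives such a library in about 1 of 20 groups. Tu-primed library 4 was the highest of its group for 7 of the 10 genes, and parental library 4 was as well. Chi-square values per degree of freedom between libraries of a group were 31.8 to 39.6 for pairs with Spl-primed library 3. They were 3.50 to 7.63 between the other Spl-primed libraries. Between parental libraries 1 or 2 and 3 or 4 they were 22.2 to 64.6, beside 6.01 between 1 and 2. The part of these differences in the results was not tested.

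The effects of both sources of Gr1+ cells against parental cells differed for *Ppl*, by -0.37 on the log2 scale, as tested by the difference between the Tu-primed and Spl-primed groups (the edgeR quasi-likelihood test, adjusted p = 0.0190), and 3 of 4 Tu-primed libraries lay below all Spl-primed libraries. The call ended when some single libraries were left out.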

How the results depend on the processing

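Beside 6, 4 and 2 genes that were lower in Tu-primed against parental, Spl-primed against parental and Tu-primed against Spl-primed cells (the last with *Perp* counted), an adjusted p under 0.01 gave 4, 2 and 1, limma on the deposited normalized values 4, 1 and 1, and DESeq2 with transcript length offsets 2 in Spl-primed cells, and the causes were not tested. *Perp* chose the set, and without it the last count was 1, then 0 and 0. Scalings added after seeing the data changed most. On library size only the counts lower were 3 and 2 against parental cells, with 1 higher in Tu-primed cells. On log2(TPM + 1) they were 0, 0 and 0, with 1 higher in Tu-primed and 2 in Spl-primed cells, and *Jup*, *Pkp2*, *Pkp3* and *Ppl* turned to 0.018, 0.17, 0.081 and 0.023 in Tu-primed and *Pkp3*, *Dsg2* and *Ppl* to 0.25, 0.076 and 0.32 in Spl-primed cells, of which *Ppl* had not passed before. Of others that had not passed, *Pkp1* and *Dsg2* turned to 0.067 and 0.19 in Tu-primed and *Jup* and *Pkp2* to 0.12 and 0.21 in Spl-primed cells, where the median gene was at 0.40 and 0.34. Leaving out each library in turn gave 4 to 6, 3 to 5 and 1 to 3 genes lower, the last 0 to 2 without *Perp*. RLE and upper-quartile factors, DESeq2, limma-voom, both other filters, protein-coding transcripts only and only the 8 libraries compared gave 5 or 6, 4 and 2 (1 without *Perp*). Same-numbered libraries of different groups did not deviate together (r from -0.164 to 0.148), and with the replicate number as a block 5, 4 and 2 genes (1 without *Perp*) were lower. Genes with few reads, such as *Pkp1* and *Evpl*, limit what depth can show.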
